A study of Heliothis virescens with 2 samples.

Results

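Nucleic acid binding proteins and mRNA splicing factors were represented by 47 tags among the 1973 entries read from the study's lists of overexpressed (OE) and underexpressed (UE) UniTags, 14 of them OE and 33 UE. The 47 are all entries whose functional class is nucleic acid binding or mRNA processing/splicing, and none of them names a ribosomal protein or a translation factor. Each was joined to the deposited counts by its counts and its 26-base sequence. Only tags held by both libraries were candidates, so presence in both was a condition of the join. They were chosen by the fold change (FC) and P of the same 2 libraries described here, so their FC values are a description and carry no test.

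HT-SuperSAGE counts a 26-base tag that begins at an NlaIII cutting site, CATG, of each polyadenylated transcript, and a tag count does not scale with transcript length. The comparison was between Vip–Sel, a subpopulation of the field-derived *Heliothis virescens* population WF06 that was selected with Vip3Aa protoxin as first-instar larvae and then held without selection for several generations, and Vip–Unsel, the subpopulation of WF06 that was never selected. Gut tissue of larvae of the third instar, reared on diet free of Vip3Aa, was used for both, so the counts compare unchallenged larvae. Each strain gave 1 library, made from 5 pooled RNA preparations that together held 25 larvae, so there was no biological replicate, and strain and library cannot be told apart. Vip–Sel gave 1056080 counts and Vip–Unsel 268172, a ratio of 3.94, and 1 count was worth 0.254 and 0.999 after scaling both libraries to the rounded total of the smaller one. Where a pair of counts follows without further words, the former is from Vip–Sel and the latter from Vip–Unsel. FC is the scaled Vip–Sel count over the scaled Vip–Unsel count, OE is FC of at least 2.5 and UE is FC of at most 0.4, both with an unadjusted one-sided P below 0.05. Intervals given with FC are exact binomial 95% intervals and cover counting error only.

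By these definitions 8.02% were OE and 30.0% UE of the 5237 tags that both libraries held. Over the 15467 tags with at least 2 counts the shares were 6.70% and 27.0%. The median FC of the tags in both libraries was 0.472, so most tags stood below 1 whatever their annotation. The 10 most abundant tags took up 53.4% of Vip–Sel and 41.8% of Vip–Unsel. The 25 listed tags named for the midgut markers trypsin, chymotrypsin, aminopeptidase N or HMG176, 16 OE and 9 UE, summed to 58253 and 12310 scaled counts, of which 1 HMG176 and 1 chymotrypsin tag, both OE, gave 46469 and 8457. The 6 listed tags with myosin or tropomyosin in their name, 2 OE and 4 UE, summed to 289 and 453 scaled counts. The 2 OE tags, with 199 and 74.0, are a non-muscle myosin heavy chain and Myosin-Vb, which do not mark muscle. The 4 UE tags, separated from them after their values were seen, summed to 89.8 and 379 scaled counts. The 4 listed cuticle tags, 1 OE and 3 UE, summed to 273 and 694. Whether tissue makeup took part in the values below was not tested, and in bulk tissue fewer cells of a type and less RNA per cell cannot be told apart.

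Splicing removes introns from pre-mRNA on the spliceosome, a particle of small nuclear RNAs and proteins that is assembled anew on each intron, and a second layer of RNA-binding proteins decides which sites are used. Zinc fingers are small folds held by a zinc ion that grip DNA, RNA or other proteins, and transcription regulators set which genes are copied into RNA. In the insect gut these proteins are part of the basic machinery of the epithelium, while the nuclear receptors among them carry the moulting hormone signal. Sequences of 14 of the 47 tags, picked for a high or low FC, many counts or an unusual base composition, are shown first with the cutting site in capitals, because OE and UE tags differed visibly in their share of G and C. Those of the OE list were as follows.
ZNF598: CATGccgcgcggcgcggcgcggcagg
virilizer: CATGtcgcgcggcccgcgccaccgct
squid: CATGggcgggcgcggcggccgcggcg
ZNFX1: CATGtgccgcggcctgtgcggcgagc
XPC: CATGcgcgccggctcgctggtcggcc
RFC2: CATGcgcgtggcggacgggctcggct
Prp8: CATGgaggacgccgcagcgcccacgc
Those of the UE list were as follows.
E75: CATGgcgctgcaggtggacgtgtccg
MEF2C: CATGtggtcaggcgcacgcggcggtg
dsRNase: CATGgctcgtggtcaccttgctgcca
TDP-43-like, contig 8800: CATGcctgctatgctctttgttgaac
H/ACA subunit 4: CATGgaggccgaaacgacggtagagg
SERBP1-like: CATGagtttgtgttgacaaatgcaga
Jumonji: CATGgaaatcaataaaattatcttat

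**Figure D1:**
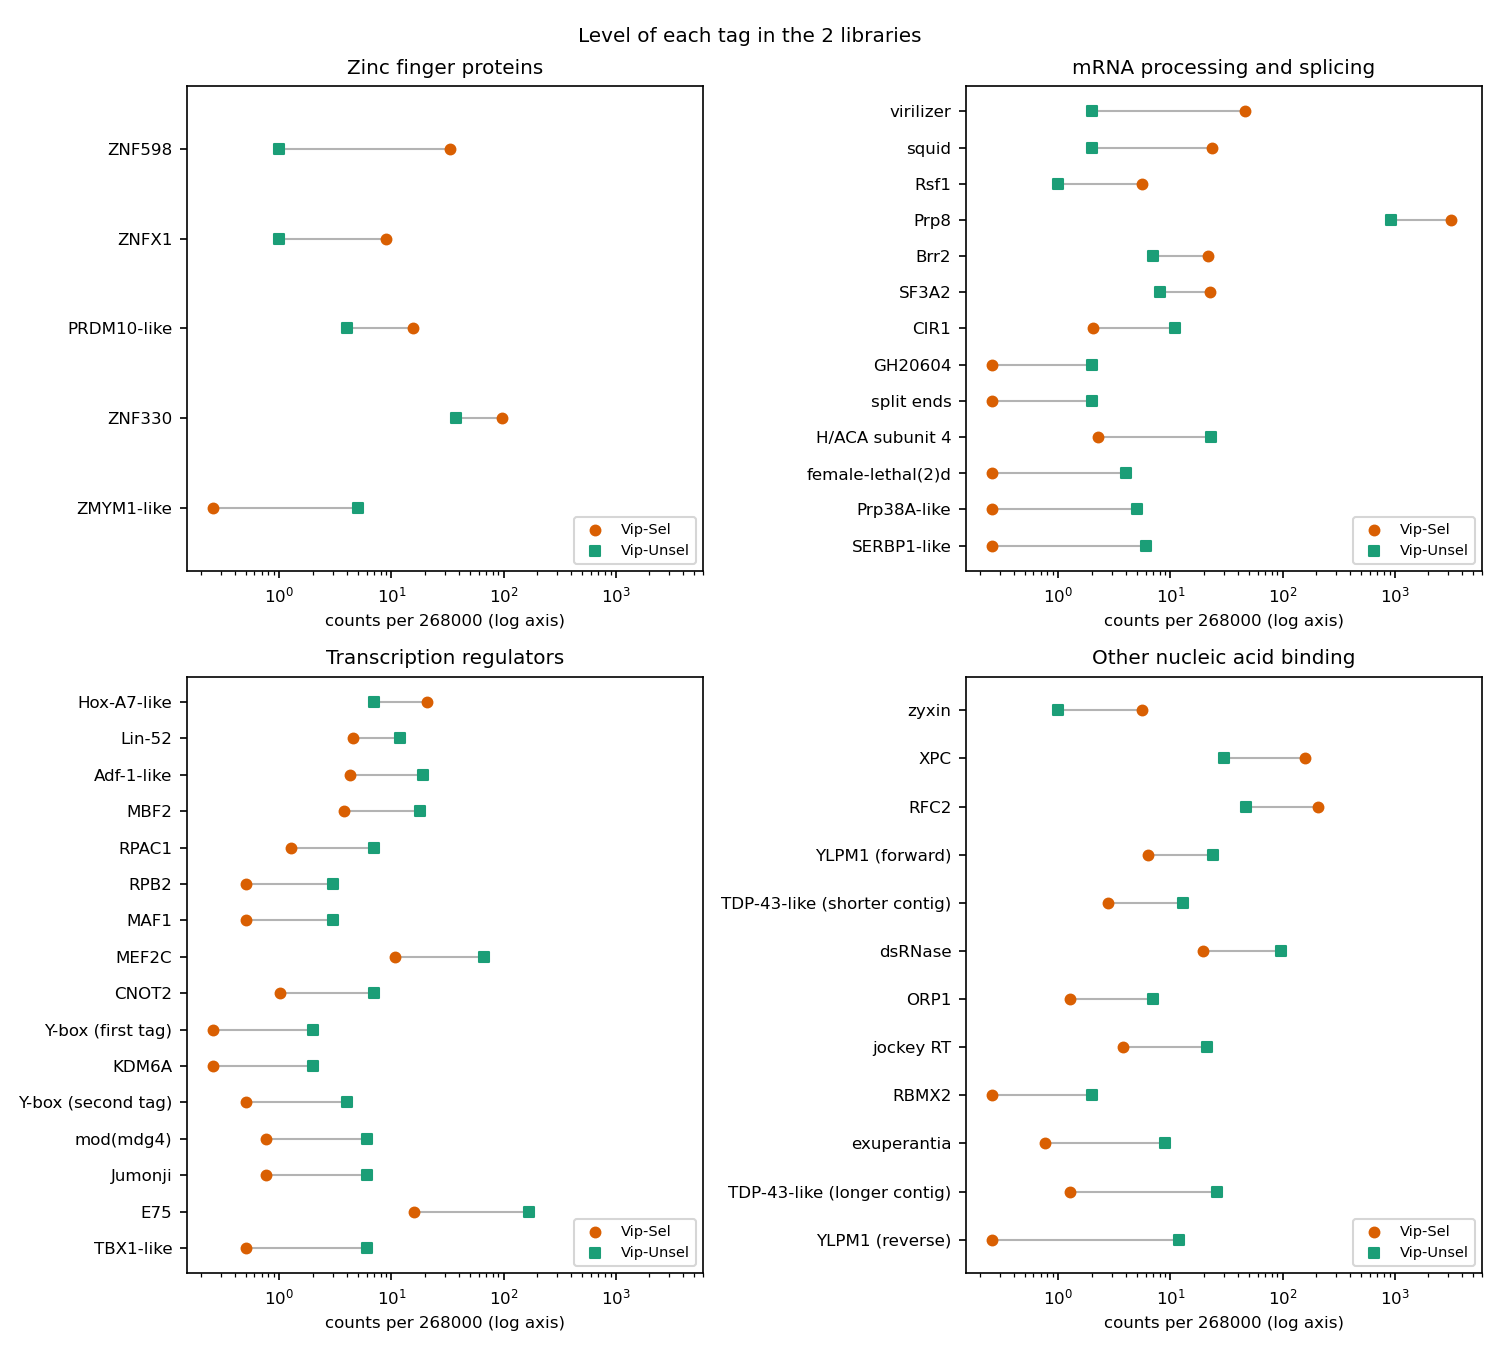
Scaled counts (log axis) of 46 of the 47 tags in Vip–Sel (circles) and Vip–Unsel (squares), 1 library each, in 4 groups by protein role. Prp8 stands far to the right of every other tag, at 3184 and 921, and most transcription regulators lie below 25 in both libraries.

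Of the 5 zinc finger tags, 4 were OE and 1 was UE, and together they gave 611 counts against 49, a summed ratio of 3.17 (95% interval 2.36 to 4.33). Each is OE or UE by choice, and of the 5237 tags in both libraries 420 were OE and 1570 UE. The tag of ZNF598, a ubiquitin ligase that marks collided ribosomes in mammals and yeast, was counted 132 times in Vip–Sel and 1 time in Vip–Unsel. Its FC of 33.5 was the highest of the 47, and the single Vip–Unsel count left an interval from 5.91 to 1334. ZNFX1, an NFX1-type zinc finger helicase with a role in antiviral defence in mammals, had 35 and 1 counts, which gave FC 8.89 (1.49 to 361). The tag of ZNFX1 lay in reverse on its contig, on contig 1945 from position 1901 to 1876, and the strand of the contig is not known. The PRDM10-like tag, for a PR domain protein of the kind that regulates transcription, had 61 and 4 counts and FC 3.87 (1.44 to 14.7). These 3 tags therefore rested on 1, 1 and 4 counts in Vip–Unsel.

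ZNF330, a nucleolar zinc finger protein in mammals, was the best counted of the group, with 382 and 38 counts and FC 2.55 (1.83 to 3.66). It was also the OE member nearest to the threshold. Just outside stood an unnamed tag with 39 and 4 counts and FC 2.48. Without ZNF330 the summed ratio of the zinc finger tags was 5.29. The only UE zinc finger tag, of a ZMYM1-like protein with the MYM type of finger, had 1 and 5 counts and FC 0.0508 (0.00107 to 0.454). The best protein match of this tag was from a plant.

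The mRNA processing and splicing class held 13 tags, 6 OE and 7 UE, not counting UE tags of RBMX2 and TDP-43-like proteins. All were called by choice, whereas 8.02% of all tags in both libraries were OE and 30.0% UE. The 13 tags gave 13040 counts against 995, a summed ratio of 3.33 (3.12 to 3.55), while their median FC was 0.185. The sum was almost wholly that of one tag. Prp8, the protein at the catalytic centre of the spliceosome, gave 12548 counts against 922, with FC 3.46 (3.23 to 3.70). Without Prp8 the sums were 492 and 73, and the ratio was 1.71 (1.34 to 2.22). The Prp8 tag lay at positions 7183 to 7208 of contig 22, 116 bases before the contig's end.

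A pair of further spliceosome proteins, Brr2 and SF3A2, stood on the same side of 1 as Prp8. Brr2, the helicase that unwinds the U4 and U6 RNAs so that the spliceosome can become active, had 85 and 7 counts and FC 3.08 (1.43 to 7.90). SF3A2, a subunit of the U2 particle that recognises the branch site, had 88 and 8 counts and FC 2.79 (1.36 to 6.67). The interval of each held the FC of Prp8, but SF3A2 had FC 1.02 and lost its OE call when tags 1 substitution apart were added. The Prp38A-like tag, for a protein needed when the spliceosome is activated, was UE with 1 and 5 counts and FC 0.0508 (0.00107 to 0.454). Its best protein match was from a plant, and the tag lay in reverse on a contig of 362 bases.

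Regulators of splicing had the highest FC of the class. Virilizer, part of the complex that writes m6A on mRNA and, in *Drosophila*, of the sex-specific splicing of Sex-lethal, was counted 183 times in Vip–Sel and 2 times in Vip–Unsel, with FC 23.2 (6.34 to 193). Squid, a heterogeneous nuclear ribonucleoprotein that places gurken mRNA in the *Drosophila* oocyte, had 92 and 2 counts and FC 11.7 (3.14 to 97.9). Rsf1, which represses splicing factors of the SR family in *Drosophila*, had 22 and 1 counts, and its FC of 5.59 had an interval from 0.903 to 231 that included 1. The partner of Virilizer in *Drosophila*, female-lethal(2)d, stood on the other side, with 1 and 4 counts and FC 0.0635 (0.00129 to 0.642). The 2 proteins of one complex thus had tags in opposite lists, the second of them on 5 counts in all.

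The remaining UE tags of the class were low. The H/ACA ribonucleoprotein complex subunit 4, the pseudouridine synthase known as dyskerin, had 9 and 23 counts and FC 0.0994 (0.0405 to 0.223), the firmest of the 7 UE tags. CIR1, a corepressor of Notch target genes, had 8 and 11 counts and FC 0.185 (0.0645 to 0.504). Split ends, a large nuclear RNA-binding protein, and GH20604, a *Drosophila grimshawi* prediction, each had 1 and 2 counts, and their FC of 0.127 had an interval from 0.00215 to 2.44. The SERBP1-like tag, for a protein that binds mRNA and sits on ribosomes, had 1 and 6 counts and FC 0.0423 (0.000920 to 0.349), which became 0.198 when tags 1 substitution apart were added. A second tag with the same SERBP1-like protein name, on contig 7687 and placed in the class of defense, was far better counted, with 458 and 493 counts and FC 0.236 (0.207 to 0.268), or 0.207 with such tags added. Both SERBP1-like tags were lower in Vip–Sel, at very different levels.

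**Figure D2:**
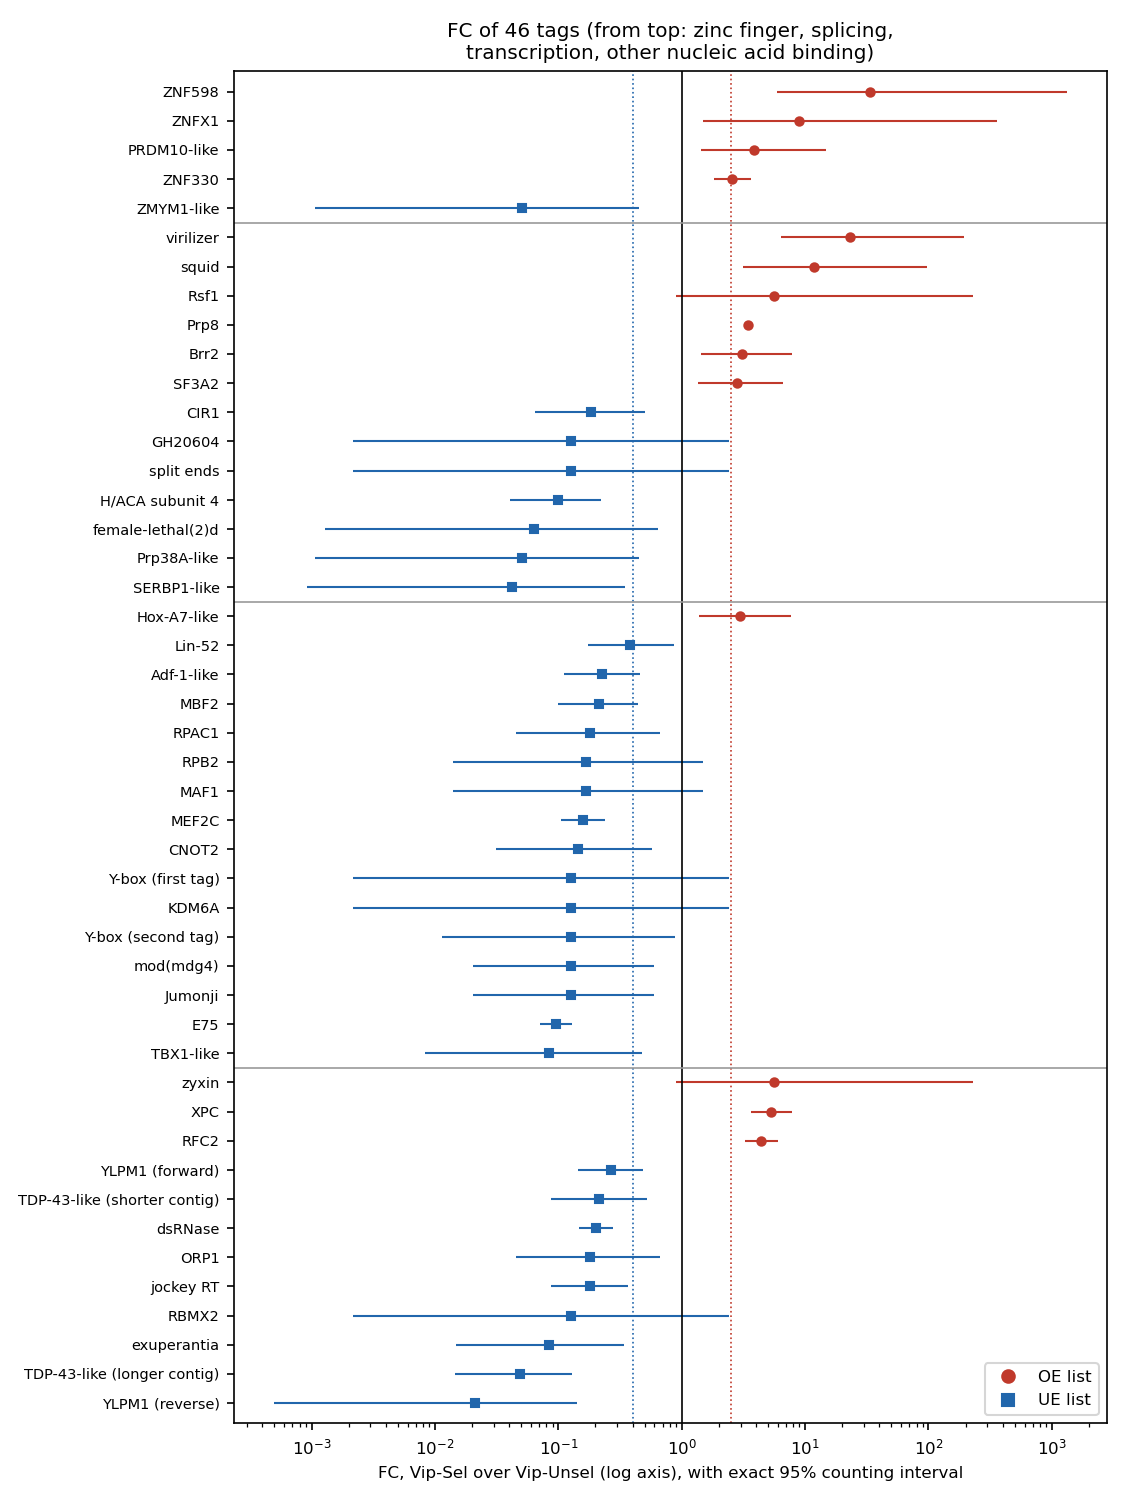
FC of Vip–Sel over Vip–Unsel (log axis) for 46 of the 47 tags, with exact binomial 95% intervals for counting error, circles for the OE list and squares for the UE list, and dotted lines at 2.5 and 0.4. The zinc finger and splicing groups hold tags on both sides, 15 of 16 transcription regulators lie left of 0.4, and the intervals of 9 of the tags drawn cross 1. Every tag drawn is OE or UE by choice, and over all tags in both libraries 420 were OE and 1570 UE.

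Of the 16 transcription regulator tags, 15 were UE and 1 was OE. Every listed tag is one or the other, and over all tags in both libraries 1570 were UE and 420 OE. The 16 tags summed to 262 counts against 336, a ratio of 0.198 (0.168 to 0.233), and their median FC was 0.152. E75, a nuclear receptor that binds heme and is induced by the moulting hormone ecdysone, gave 63 counts against 167, with FC 0.0958 (0.0705 to 0.129). It held the most counts of the group, and without it the summed ratio was 0.299 (0.242 to 0.369). MEF2C, a MADS box factor known above all for its part in muscle, gave 42 and 67 counts and FC 0.159 (0.106 to 0.238). Of the 6 myosin and tropomyosin tags 2 were OE and 4 UE, as given above, and the part of muscle in the MEF2C value was not tested. The tag of the homeobox protein similar to Hox-A7, a member of the family that sets identity along the body axis, was the only OE tag, with 82 and 7 counts and FC 2.97 (1.38 to 7.63).

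The regulators with counts between 12 and 19 in Vip–Unsel were Lin-52, Adf-1-like and MBF2. Lin-52, a subunit of the MuvB complex that controls cell cycle genes, had 18 and 12 counts. No UE member had a higher FC than its 0.381, and its interval ran from 0.174 to 0.867. Just outside stood an unnamed tag with 82 and 52 counts and FC 0.40 after rounding. The Adf-1-like protein, a relative of the *Drosophila* activator of alcohol dehydrogenase, had 17 and 19 counts and FC 0.227 (0.111 to 0.462). MBF2, a coactivator described in silkmoths, had 15 and 18 counts and FC 0.212 (0.0993 to 0.445).

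Subunits and repressors of the RNA polymerases were also among the UE tags. RPAC1, shared by RNA polymerases I and III, had 5 and 7 counts and FC 0.181 (0.0454 to 0.664). RPB2, a catalytic subunit of RNA polymerase II, had 2 and 3 counts, and MAF1, the repressor of RNA polymerase III, also had 2 and 3. The FC of both was 0.169, with an interval from 0.0141 to 1.48. CNOT2, a subunit of the CCR4-NOT complex that shortens poly(A) tails, had 4 and 7 counts and FC 0.145 (0.0311 to 0.571). The intervals of RPB2 and MAF1 thus included 1, and those of RPAC1 and CNOT2 did not.

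Chromatin and developmental regulators filled the rest of the group. Jumonji, a chromatin protein of the demethylase family, and mod(mdg4), an insulator protein in *Drosophila*, each had 3 and 6 counts and FC 0.127 (0.0205 to 0.595). The TBX1-like T-box factor had 2 and 6 counts and FC 0.0846 (0.00835 to 0.473), the lowest FC of the group. KDM6A, which removes methyl groups from histone H3, had 1 and 2 counts and FC 0.127 (0.00215 to 2.44). The Y-box protein, which binds mRNA through a cold shock domain, gave 2 tags on one contig, at positions 971 and 1390 of contig 5897. The former had 1 and 2 counts and the latter 2 and 4, which gave FC 0.127 for each.

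Of the 13 other nucleic acid binding tags, 3 were OE and 10 UE. These too were called by choice, and over all tags in both libraries 420 were OE and 1570 UE. The sums of the 13 were 1608 and 295, a ratio of 1.38 (1.22 to 1.57), but their median FC was 0.202. A pair of DNA maintenance proteins made the sum. RFC2, a subunit of the clamp loader of DNA replication, gave 813 counts against 47, with FC 4.39 (3.27 to 6.03). XPC, which recognises damaged DNA for nucleotide excision repair, gave 621 and 30 counts and FC 5.26 (3.64 to 7.86). Without RFC2 the summed ratio of the group was 0.814 (0.705 to 0.943), on the other side of 1. Zyxin, a LIM domain protein of cell adhesion sites, had 22 and 1 counts, and its FC of 5.59 had an interval from 0.903 to 231.

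The best counted UE tag of the other group was that of dsRNase, a nuclease of the insect gut that degrades double-stranded RNA, with 77 counts against 97 and FC 0.202 (0.147 to 0.275). TDP-43-like tags, for an RNA-binding protein that controls splicing in animals, came from 2 contigs. The tag of contig 8800 had 5 and 26 counts and FC 0.0488 (0.0146 to 0.129), and that of contig 12397, which is shorter, had 11 and 13 counts and FC 0.215 (0.0872 to 0.520). Both were lower in Vip–Sel, and together they gave 16 and 39 counts, a ratio of 0.104 (0.0543 to 0.191). A jockey-like reverse transcriptase, from a family of retrotransposons, had 15 and 21 counts and FC 0.181 (0.0870 to 0.369). Exuperantia, which helps to place bicoid mRNA in the *Drosophila* egg, had 3 and 9 counts and FC 0.0846 (0.0147 to 0.339).

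ORP1 had 5 and 7 counts and FC 0.181 (0.0454 to 0.664). RBMX2, a splicing protein with an RNA recognition motif, had 1 and 2 counts. In all, 5 of the UE members rested on 1 and 2 counts. In the whole series 200 tags had these counts and all 200 were called UE, although the interval of such a tag ran from 0.00215 to 2.44.

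YLPM1, a nuclear protein with YLP motifs, gave 2 UE tags that point away from one and the same cutting site of contig 143. The forward tag began at position 4654 and the reverse tag at 4657, and joined at their shared CATG, in capitals, they give 48 bases of contig 143 from position 4632 to 4679, shown because both tags are read from it.
YLPM1 site: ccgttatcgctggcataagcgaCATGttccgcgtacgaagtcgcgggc
The forward tag had 25 counts against 24, with FC 0.265 (0.145 to 0.484). The reverse tag had 1 and 12 counts and FC 0.0212 (0.000495 to 0.143), the lowest of the 47. Of the counts of both tags, the reverse tag made up 3.85% in Vip–Sel (1 of 26, exact binomial 95% interval 0.0973% to 19.6%) and 33.3% in Vip–Unsel (12 of 36, 18.6% to 51.0%). The intervals of the 2 shares overlapped only narrowly, and the former rests on a single count. These shares are those of the listed forms only. With all tags 1 substitution apart added, the reverse tag had 10 and 18 counts and the forward tag 68 and 67. The shares of the reverse tag then lay much closer together.

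Tags that differ from a member by a single base were present for 44 of the 47, and the base that differed was the last of the tag, position 26, in the best counted relative of 33 members. Positions are counted from 1 at the 5′ end of the tag, so that CATG takes positions 1 to 4, and a substitution names the member's base first. Over all 291 such relatives, 82 differed at position 26, and these held 60.8% of what the relatives counted in Vip–Sel, and 53.2% in Vip–Unsel. Adding the relatives to each member left all 14 OE members above FC 1 and all 33 UE members below it. The OE calls of SF3A2 and zyxin and the UE calls of split ends, MAF1 and RPB2 were lost. ZNF598 kept its OE call, with FC 19.6 in place of 33.5.

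The YLPM1 forward tag had 2 well counted relatives at position 5, T5A about as common as itself and T5G rarer, shown here with that position in capitals.
Listed tag: catgTtccgcgtacgaagtcgcgggc
T5A: catgAtccgcgtacgaagtcgcgggc
T5G: catgGtccgcgtacgaagtcgcgggc
The listed tag had 25 and 24 counts, the T5A tag 23 and 27, and the T5G tag 13 and 12, with FC 0.265, 0.216 and 0.275. All 3 forms were lower in Vip–Sel by nearly the same factor. The T21C relative of the reverse tag, with 9 and 5 counts and FC 0.457, was also lower in Vip–Sel after scaling. With all its relatives added the FC of the reverse tag was 0.141.

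For MAF1 the listed tag was a rare form of a common one.
MAF1, listed tag: catgcgcgagtccaactcgcacttAg
MAF1, A25G: catgcgcgagtccaactcgcacttGg
The A25G tag had 80 and 23 counts where the listed tag had 2 and 3, so the common form had FC 0.883 and the rare form 0.169. With all relatives added the FC of MAF1 was 0.840. Whether the 2 forms come from one gene was not tested.

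H/ACA subunit 4 and XPC each had a relative that was divided differently between the libraries.
H/ACA subunit 4, listed tag: catggaggccgaaacgacGgtagagg
H/ACA subunit 4, G19A: catggaggccgaaacgacAgtagagg
The G19A tag had 18 and 9 counts and FC 0.508, so it was more common than the listed tag in Vip–Sel, where it made up 66.7% of the pair, and less common in Vip–Unsel, where it made up 28.1%. With all relatives added FC was 0.198. For XPC, the C7T relative, shown with that position in capitals, stood on the opposite side of 1 from the listed tag.
XPC, C7T: catgcgTgccggctcgctggtcggcc
It had 4 counts against 16 and FC 0.0635, against 5.26 for the listed tag, and with all relatives added the FC of XPC was 3.56.

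SF3A2 lost its OE call when its relatives were added, and it had a commoner neighbour 2 substitutions away. The bases that differ are in capitals.
SF3A2, G26A: catgcgcctgccacctcctcccgggA
SF3A2, T16C and C22A: catgcgcctgccaccCcctccAgggg
The G26A tag had 7 and 10 counts and FC 0.178. Summed with all tags 1 base apart, SF3A2 had 112 counts against 28 and FC 1.02. The neighbour with both substitutions T16C and C22A had 179 and 21 counts and FC 2.16, below the OE threshold. For dsRNase, the neighbour with T22C and C25G had 87 and 492 counts and FC 0.0449. This neighbour was more common than the listed tag in both libraries and lower in Vip–Sel by a larger factor. Whether neighbours 2 substitutions away come from the same gene as the member was not tested.
dsRNase, T22C and C25G: catggctcgtggtcaccttgcCgcGa
Zyxin, with 33 and 5 counts once its A26G relative was added, had a pair FC of 1.68. The tags of RFC2 at position 26 went with the listed tag, with FC 12.8 for T26G, 5.08 for T26C and 1.61 for T26A.

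**Figure D3:**
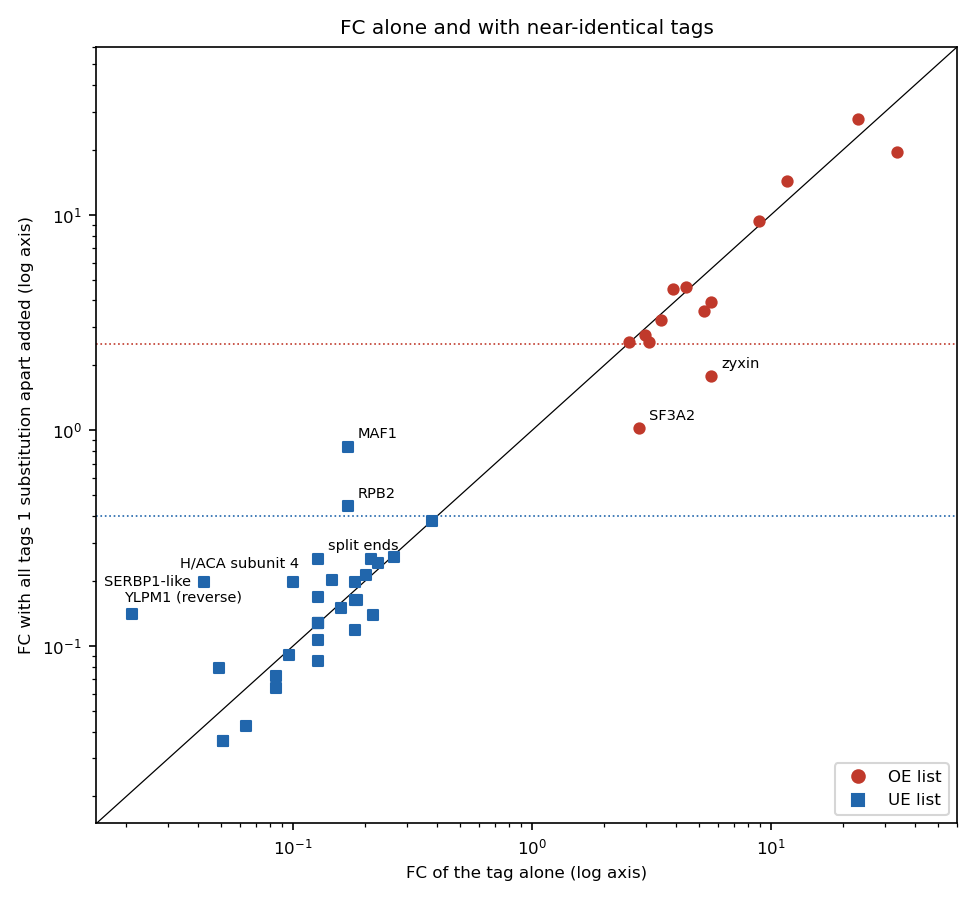
FC of 46 of the 47 tags alone (x axis) against FC after the counts of all tags 1 substitution apart were added (y axis), both log axes, with circles for the OE list, squares for the UE list, a line of equality and dotted lines at 2.5 and 0.4. Named tags moved by more than 1.9 times, with SF3A2 going from 2.79 to 1.02 and MAF1 from 0.169 to 0.840.

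The base composition of the tags, which the choice of members did not use, differed between the lists. In the 22 bases after the cutting site the 14 OE members had a median GC content of 81.8% (54.5% to 100%) and the 33 UE members one of 59.1% (13.6% to 81.8%). The squid tag held only G and C in these 22 bases, and the ZNF598 tag 21 of 22. The Jumonji tag held 3 G or C bases of 22. Over all tags counted in both libraries the median was 72.7% for the 420 OE tags and 63.6% for the 1570 UE tags, so the same order was present in the whole series.

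Of the 11 members with up to 10 G or C bases none was OE, of the 21 with 11 to 15 there were 4 OE, and of the 15 with more than 15 there were 10. Over all tags counted in both libraries 4.40%, 6.44% and 11.3% were OE in these 3 classes, and 39.4%, 29.9% and 27.2% were UE. Tags without a call make up the rest, whereas every member was called, so these shares cannot be set against those of the members. The median FC of the tags in both libraries was 0.254, 0.423 and 0.508. When the trend of FC with GC content was taken out and the overall median kept, 13 of 14 OE calls and 30 of 33 UE calls remained. ZNF330 lost its call with little change, from FC 2.55 to 2.37. Jumonji went from 0.127 to 0.485, and the Y-box tag at position 1390 from 0.127 to 0.408, and both lost theirs. They held only 3 and 4 G or C bases. The median taken out for each came from fewer than 20 tags, the member among them, so these 2 losses say little about the trend. The part of base composition in the FC of a single member was not tested further.

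**Figure D4:**
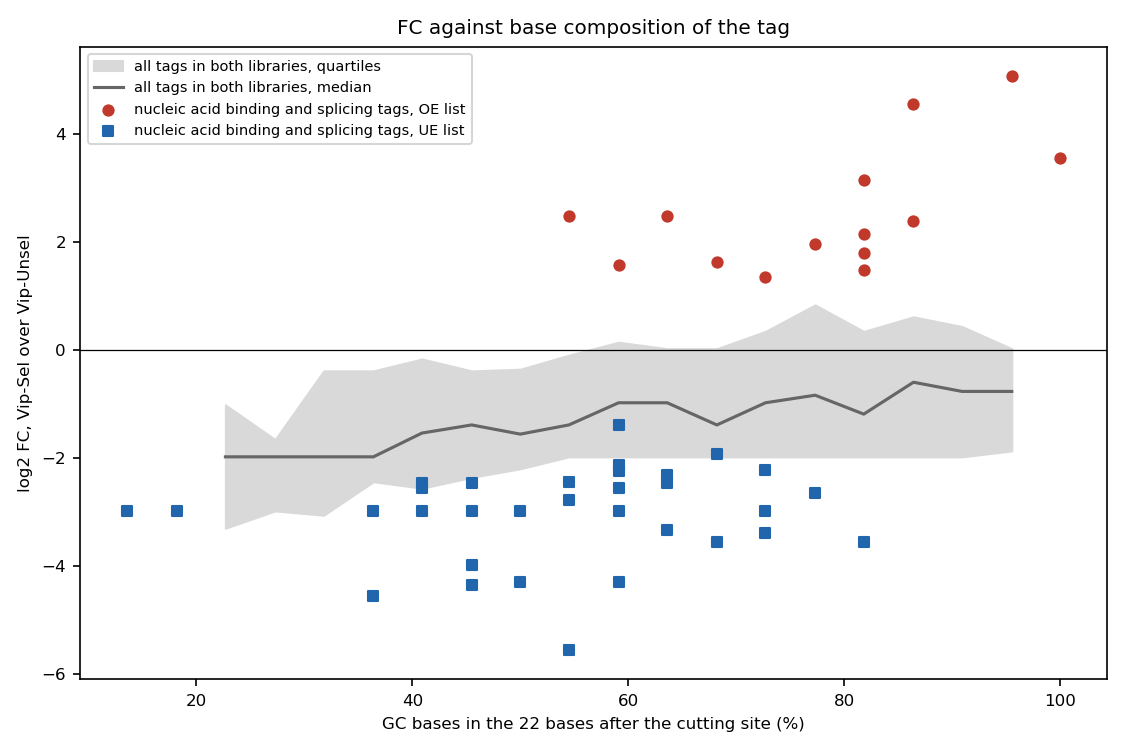
log2 FC of Vip–Sel over Vip–Unsel against the GC content of the 22 bases after the cutting site, with circles for OE members, squares for UE members, a line for the median and a band for the quartiles of all tags counted in both libraries with the same GC content. The OE members gather at the GC-rich end, with a median of 81.8%, and the UE members spread from 13.6% to 81.8%.

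Depth also differed between the lists. No OE member had fewer than 23 counts over both libraries, and 22 of the 33 UE members had fewer than 20. Among all tags in both libraries with 2 to 5 counts none was OE and 21.9% were UE, and with 6 to 20 counts none was OE and 42.5% were UE. The call rule fixes this absence of OE tags. With up to 20 counts a tag of both libraries cannot meet both the FC and the P limit for OE. Counts of 1 and 2 sufficed for UE. Above 100 counts 30.1% were OE and 21.3% UE, and the rest had no call. Of the 9 members of that depth 6 were OE, but every member was called, so these shares cannot be set against each other. The intervals of 10 members, 2 OE and 8 UE, included an FC of 1. Under edgeR's TMM scaling, which multiplied every FC by 2.12, all 14 OE calls and 18 of the 33 UE calls remained. A rise of every FC cannot take an OE call away. All 33 UE members were still below 1, as no FC of at most 0.4 reaches 1 at that factor. A minimum of 10 counts over both libraries left the same numbers of calls, and could not remove an OE member.

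The tags lay at all distances from the contig ends. In 17 of the 47 the tag was within 150 bases of the end of its contig, and the median distance was 221 bases for OE and 407 for UE members. In 10 members, 2 OE and 8 UE, the tag was in reverse on the contig. Among them were ZNFX1, zyxin and MEF2C, and because the strand of the contigs is not known it cannot be said which of them are antisense.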

How the data were processed

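Per the labels, total RNA of gut tissue of Vip–Sel and Vip–Unsel larvae was made into 1 HT-SuperSAGE library each. The authors deposited raw counts per 26-base tag, after removing tags of other lengths, undetermined bases, long homopolymers and low-quality reads. Function, contig and position of each tag were taken from the study's lists, which had been read from page images. Entries were joined to deposited tags of the same counts by edit distance (at most 9 edits, at least 2 fewer than the next candidate). Candidates were the tags held by both libraries, and 404 of 412 OE and 1475 of 1561 UE entries were joined. Counts that had been misread were recovered from the scaled values. The Y-box tag at position 1390 was joined from 14 legible letters, and KDM6A had the smallest margin. RFC2 and the Hox-A7-like protein are named without codes because theirs may have been misread. No genome was used.

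FC, with a count of 1 in place of 0, and the exact one-sided Audic–Claverie P were computed for all tags with at least 2 counts over both libraries. The upper tail left out the observed count. Python 3.11.15 with scipy 1.17.1 and numpy 2.4.6 was used, and edgeR 4.0.16 in R 4.3.3 gave TMM factors only, since without replicates no dispersion could be estimated. Members are named by rule, except 1 that is not reported here and was left out of the figures but not of counts and sums, and grouped as zinc finger, splicing, transcription or other. The call procedure and intervals were tried on simulated counts with counting error only. Known changes and intervals were simulated only for better counted tags, so those of members with few counts were not covered. The members, groups and lists were chosen with earlier results of these data known. Other scalings, count minimums, tests and groupings of near-identical tags, and the removal of the GC trend, which was chosen after seeing the data, are given in the closing section.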

Additional observations from a re-analysis of the deposited data

How the results depend on the processing

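With all tags 1 substitution apart added, which 44 of the 47 had, all 47 members kept their side of an FC of 1. SF3A2 did so only at 1.02. Such sums hold each member's own counts, by which it was chosen, and 12 OE and 30 UE calls remained. All 47 also kept their side under TMM scaling, where the size of the factor and the FC thresholds leave no other outcome. TMM multiplied every FC by 2.12 (1.09 on the log2 scale), which kept all 14 OE calls and left 18 of 33 UE calls. A minimum of 10 counts, which no OE member could fail, also left 18 UE calls and all 14 OE calls. FC thresholds of 4 and 0.25 left 8 OE and 30 UE. Benjamini-Hochberg adjustment over all 15467 tags and Fisher's exact test each left 12 OE and 25 UE, without Rsf1 and zyxin. Centring on tags of the same GC count, which also moved the overall level, left 14 and 25. The summed ratio of the zinc finger tags was 6.72 with TMM, 6.23 with GC centring and 5.29 without ZNF330. That of the splicing tags was 7.06 with TMM, 4.16 with totals lacking the 10 most abundant tags, 3.10 with tags sharing 24 bases, 3.07 with tags 1 substitution apart, 6.54 with GC centring and 1.71 without Prp8. That of the transcription regulators was 0.420, 0.247 and 0.412 with TMM, reduced totals and GC centring, and 0.299 without E75. That of the other tags was 2.94, 1.73 and 2.61 under the same 3 settings, 1.15 with tags 1 substitution apart, and reversed to 0.814 without RFC2. TMM, reduced totals and GC centring raise every ratio by construction, and the cause of the other shifts is the counts added or left out. No paired analysis was possible because each strain has 1 library. With 1 library per strain no FC could be set against the spread between libraries, and 11 members had 1 or 2 counts in Vip–Unsel and 10 members 1 count in Vip–Sel, where 1 more count would move FC strongly.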

Other observations

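A further 6 listed tags name proteins that handle nucleic acids but stand in other functional classes. They were chosen by the same FC and P, so their values are a description. FXR1, an RNA-binding relative of the fragile X protein that controls translation, was counted 67 times in Vip–Sel and 5 times in Vip–Unsel, with FC 3.40 (exact binomial 95% interval 1.39 to 10.8), and was the only OE tag of the 6. HARBI1, a nuclease derived from a transposase, had 84 and 149 counts and FC 0.143 (0.108 to 0.188).

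The other four were low. ZSWIM8, a SWIM-type zinc finger protein that triggers microRNA decay in flies and mammals, had 6 and 6 counts and FC 0.254 (0.0679 to 0.95). LSM14, a protein of cytoplasmic bodies that hold repressed mRNA, had 2 and 5 counts and FC 0.102 (0.00967 to 0.620), and so did ELOF1, a transcription elongation factor. The Pol polyprotein of a TNT retrotransposon had 2 and 3 counts and FC 0.169 (0.0141 to 1.48).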
